A study of Mus musculus with 2 samples.

Results

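The unfolded protein response, the Atf4 arm of the integrated stress response and the tRNA synthetases of the cytosol were followed in a mouse glioblastoma stem cell line. The set holds 47 genes of 23784 named genes on the array. They were chosen by name, as the sensors of endoplasmic reticulum (ER) stress, Atf4 and its regulators and target genes, the enzymes of serine, asparagine, proline and folate metabolism, the chaperones and degradation factors of the ER, and cytosolic tRNA synthetases. All 47 were found, through 72 of the 56595 probes that were kept, and every one of the 72 probes was well above background on both arrays.

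The line was derived from mouse glioblastomas that a Sleeping Beauty (SB) transposon had induced de novo. It grew as neurospheres without serum, with the growth factors EGF and bFGF. Both groups were stably transduced with a lentivirus. The control carried a non-target shRNA and the other group a Gli2 shRNA, against the zinc finger factor through which Hedgehog signalling acts on its target genes. Each of the 2 groups is 1 array from 1 line, and both arrays lay on 1 slide. The number of hairpins and of clones is not given in the sources used here, and neither is the genotype or age of the mice. A single array for each group allows no test, no p-value and no measure of how far separate cultures differ.

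In the unfolded protein response, proteins that fail to fold in the ER draw the chaperone Hspa5 away from 3 sensors: Ern1 splices the mRNA of Xbp1, Atf6 is cut to release a transcription factor, and Eif2ak3 (PERK) phosphorylates the initiation factor eIF2. Eif2ak4 (GCN2) phosphorylates the same factor when amino acids run short. Phosphorylated eIF2 lowers general protein synthesis and raises translation of Atf4, which switches on genes for amino acid supply and tRNA charging. Serine made by Phgdh, Psat1 and Psph feeds the folate cycle through Shmt2 and Mthfd2, a route much studied in tumours. Part of this regulation is by splicing, cleavage, phosphorylation and translation, which an expression array does not measure.

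Promoter sequences are shown for the genes that carry each class of response motif, because these motifs link the members to the transcription factors of the pathway. They are from RefSeq on build GRCm38.p6, in windows from 250 bases before to 50 after the start of a gene, and 39 of the 47 members had such a window. The ER stress element, CCAAT and CCACG with 9 bases of any kind between them, was searched on both strands. It lay in the windows of 6 of 9 chaperone and folding genes with a window (Hspa5, Hsp90b1, Pdia6, Dnajc3, Calr and Creld2), in none of the other members, and in 0.137% of 27025 genes. In the stretches below the capitals mark the match, read 5′ to 3′ on the strand of the gene. Calr and Creld2 hold the element on the opposite strand.
Hspa5: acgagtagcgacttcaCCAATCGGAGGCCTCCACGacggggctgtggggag
Pdia6: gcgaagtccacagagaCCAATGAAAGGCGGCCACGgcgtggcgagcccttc
Calr: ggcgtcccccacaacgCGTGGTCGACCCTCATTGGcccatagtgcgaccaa
Creld2: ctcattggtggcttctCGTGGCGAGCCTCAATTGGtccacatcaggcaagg
The Hspa5 stretch is chr2:34772009-34772059 on the plus strand, that of Pdia6 chr12:17266475-17266525 on the plus strand, that of Calr chr8:84847059-84847109 on the minus strand and that of Creld2 chr15:88819504-88819554 on the plus strand. All lie upstream of the start, and the matches begin 65, 98, 162 and 126 bases before it.

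The composite element that Atf4 binds with C/EBP factors, TGATGNAAN, was likewise searched on both strands. It lay in the windows of 12 of the 39 members (30.8%) and of 4.5% of 27025 genes. The 12 were Atf3, Trib3, Chac1, Nupr1, Asns, Pycr1, Herpud1, Aars, Gars, Yars, Iars and Tars, so 5 were tRNA synthetases. In Trib3, Yars and Iars the match was downstream of the start, and these are not shown. Many members were listed because they are known Atf4 or ER stress targets, so these shares are no independent evidence about them. The sequences below are those of the members with the highest and lowest differences and of Asns, the asparagine synthetase gene, in which this element was described.
Atf3: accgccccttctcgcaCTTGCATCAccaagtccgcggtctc
Nupr1: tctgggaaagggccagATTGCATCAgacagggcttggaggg
Herpud1: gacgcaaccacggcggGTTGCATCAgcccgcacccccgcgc
Asns: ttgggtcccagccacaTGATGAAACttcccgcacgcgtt
Aars: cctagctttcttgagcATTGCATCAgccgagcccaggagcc
Chac1: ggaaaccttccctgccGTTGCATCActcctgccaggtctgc
These are chr1:191183420-191183460 (Atf3, minus strand), chr7:126625557-126625597 (Nupr1, minus), chr8:94386300-94386340 (Herpud1, plus), chr6:7693210-7693248 (Asns, minus), chr8:111033713-111033753 (Aars, plus) and chr2:119351032-119351072 (Chac1, plus). Matches begin between 194 (Chac1) and 23 (Asns) bases before the start. The other motifs searched were CCACG, the end of the ER stress element, found in 30 of the 39 members (76.9%) and in 35.5% of all genes, and TGACGTGG, whose reverse complement contains CCACG, found in 0 of the 39 and in 0.714% of all genes. A match describes the letters in the window and shows no binding.

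Levels are given as the scaled signal, the processed signal of a spot divided by its own array's 75th percentile over non-control probes. That percentile was 329 for the control and 399 for the Gli2 shRNA. Differences are on the log2 scale, Gli2 shRNA minus control, and the ± is the scanner software's modelled error of both spots, which does not cover cultures. It ran from 0.20 to 0.21 over the members. The Gli2 shRNA array was thus brighter at this percentile, and 37 of the 47 members had a higher unscaled signal there. Every direction below is relative to the other probes. A gene with several probes is represented by its brightest probe. Scaled signals of different genes come from different probes and have no common scale.

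The targeted gene, Gli2, had signals of 98.1 (control) and 57.9 (Gli2 shRNA), 48.7% of the control after scaling (-1.04 ± 0.22). This value rests on 1 spot of 1 probe at a dim signal. Of all genes with control signals of 50 to 200, 7.59% differed by 2-fold or more in either direction. Of the stem cell markers, Sox2, Nes, Olig2, Msi1 and Fabp7 were well above background on both arrays, and Nr2e1 and Prom1 on 1 array. Of 6 myeloid markers, Ptprc, Cx3cr1 and C1qa were well above background on neither array, whereas Csf1r and Itgam were on both. None of the 4 fibroblast and pericyte markers was measured on both arrays, 2 of 4 endothelial markers were (Pecam1 and Kdr), as were all 5 neuronal markers, 3 of 4 astrocyte and all 4 oligodendrocyte markers. The summed scaled signal, in which bright probes weigh most, was 70.2 for the control and 54.9 for the Gli2 shRNA over the 5 neuronal markers. Map2 alone differed by more than that gap (56.7 and 40.5). Snap25 was also lower (-0.12), and Tubb3 (0.74), Syt1 (0.22) and Rbfox3 (0.05) were higher. The sum of the 4 astrocyte markers was 1.32 and 0.98, and that of the 6 myeloid markers 15.5 and 14.7. Their part in the differences below was not tested, and in such bulk RNA fewer cells of a type and less RNA per cell cannot be told apart.

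No member reached 2-fold in either direction. Of all 14563 genes measured on both arrays 3.63% did (1.84% higher and 1.79% lower). The differences of the 47 members ran from -0.67 to 0.59, with a median of -0.13 against 0.00 for all genes measured on both arrays. 30 members lay below 0 and 17 above it, where 49.7% of all genes lay below 0. A smaller size of 1.2-fold was therefore added after the values were seen. By that size 11 members (23.4%) were lower, where 18.6% of all genes were, and 5 (10.6%) were higher, where 19.6% of all genes were. With median scaling, which raised the median of all genes to 0.14, the split was 5 lower and 11 higher. The shares of all genes under that scaling were not counted. The member counts thus depend on the scaling, and neither marks the set as a whole. By role the groups took different places: all 8 amino acid and folate enzymes and 10 of 11 chaperone and folding genes lay below 0, all 3 ER degradation genes above it, and the 13 tRNA synthetases around it. These counts include genes close to 0. Asns lay above 0 with several other settings, such as cyclic loess (0.05), and Hyou1 (0.10) and Dnajc3 (0.04) did so with median scaling.

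**Figure D1:**
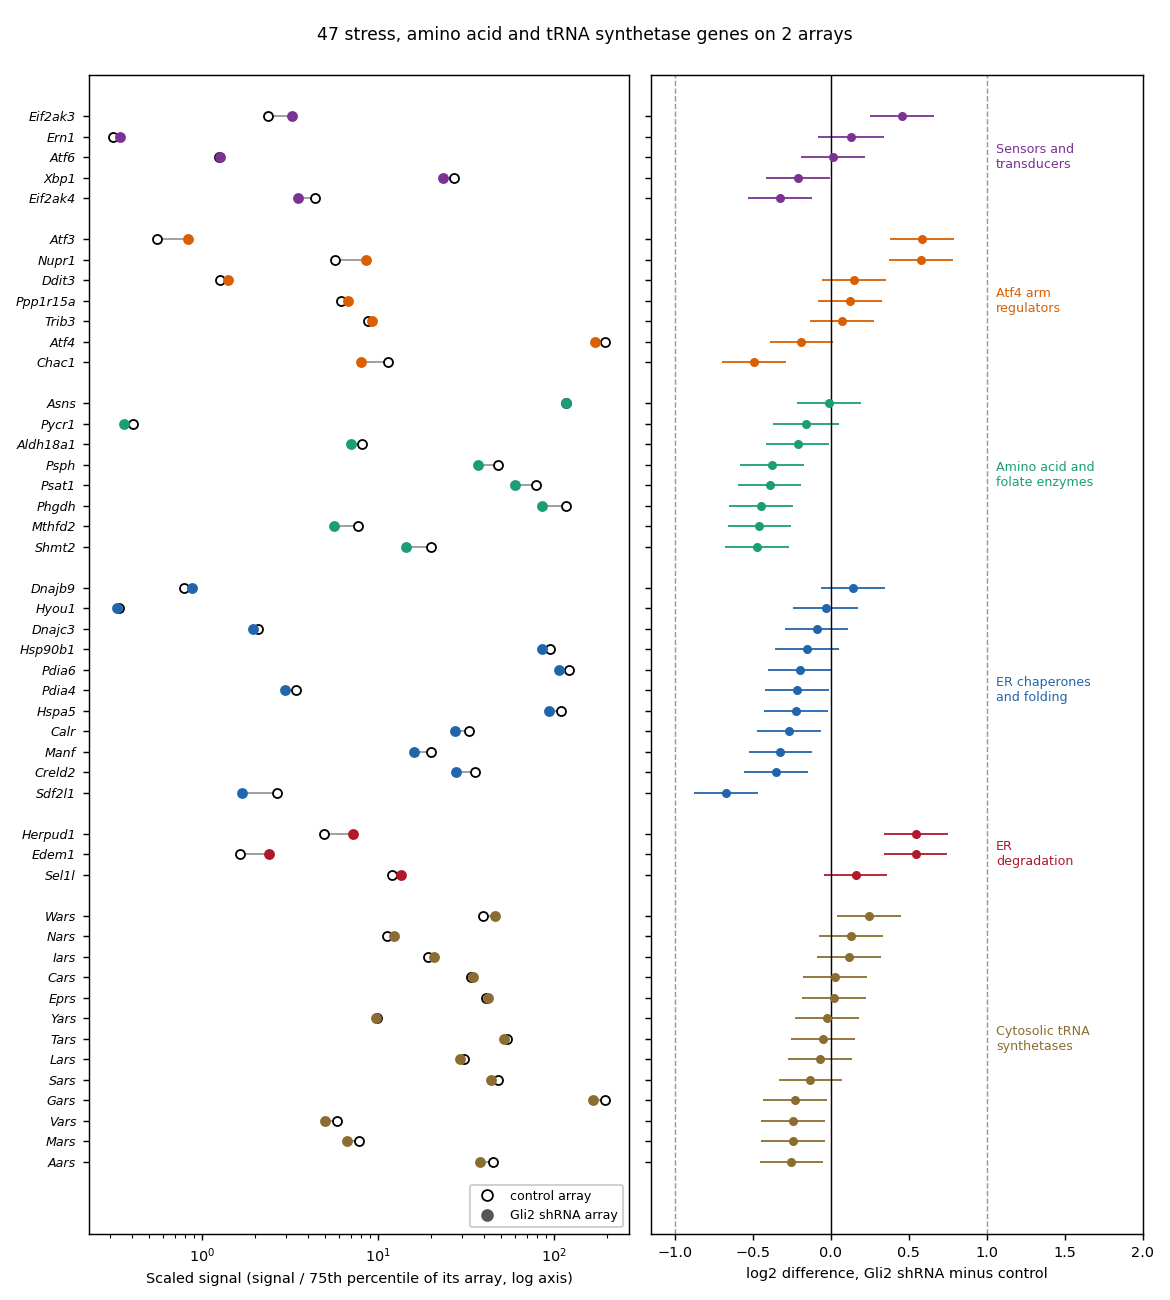
Scaled signal of each of the 47 members on the control array (open circles) and the Gli2 shRNA array (filled circles) on a log axis, and the log2 difference with the software's error as bars (1 array per group), grouped by role. All points lie between -0.67 (Sdf2l1) and 0.59 (Atf3), inside the dashed lines that mark 2-fold.

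The members that act in serine synthesis and the mitochondrial folate route were lower on the Gli2 shRNA array. Phgdh, the first enzyme of serine synthesis, had scaled signals of 116 (control) and 84.9 (Gli2 shRNA; the same order is kept below), 73.3% of the control (-0.45 ± 0.20). Psat1, the aminotransferase that follows it, had 78.1 and 59.5 (-0.39 ± 0.20), with -0.27 on its other probe. Psph, the phosphatase of the last step, had 47.9 and 36.9 (-0.37 ± 0.20). All steps from phosphoglycerate to serine were thus lower on the Gli2 shRNA array by similar sizes.

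Shmt2, the mitochondrial enzyme that moves a carbon from serine to folate, had scaled signals of 20.0 and 14.4 (-0.47 ± 0.20), and its other probe, at signals of 69.0 and 52.3, gave -0.68. Mthfd2, the next mitochondrial folate enzyme, had 7.70 and 5.61 (-0.46 ± 0.20), with -0.43 on its other probe. These 5 serine and folate enzymes lay between -0.47 and -0.37, and each was past 1.2-fold. They are part of the 8 amino acid and folate enzymes and were not set apart in advance. Their narrow range is therefore no separate finding, and the SD between all 8 genes was 0.17. Every probe of the 5 lay below 0. Among the related Atf4 targets outside the set, the mitochondrial folate enzymes Mthfd1l and Aldh1l2 did not clearly follow. Mthfd1l was at 0.15, and Aldh1l2 at -0.16 with 0.01 on its other probe.

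The other amino acid enzymes were nearer to 0. Aldh18a1, which starts proline synthesis from glutamate, had 8.10 and 6.99 (-0.21 ± 0.20), and Pycr1, which completes it, 0.40 and 0.36 (-0.16 ± 0.21). Asns, which makes asparagine, had 117 and 116 (-0.01 ± 0.20) on its brighter probe and 0.17 on the other, and has no settled direction. The group of 8 had a median of -0.38, and 5 of 8 (62.5%) were lower by 1.2-fold or more, as 18.6% of all genes were. With median scaling, which raised the median of all genes to 0.14, the group median was -0.25, and 3 of 8 were past 1.2-fold, since Psat1 (-0.26) and Psph (-0.24) were not. At the high signals of several of these genes all genes also lay somewhat below 0. The 659 genes with a control signal of 20000 or more had a median of -0.12, and those from 5000 to 20000 a median of -0.05. After cyclic loess, which levels such a trend, the group median was -0.34.

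**Figure D2:**
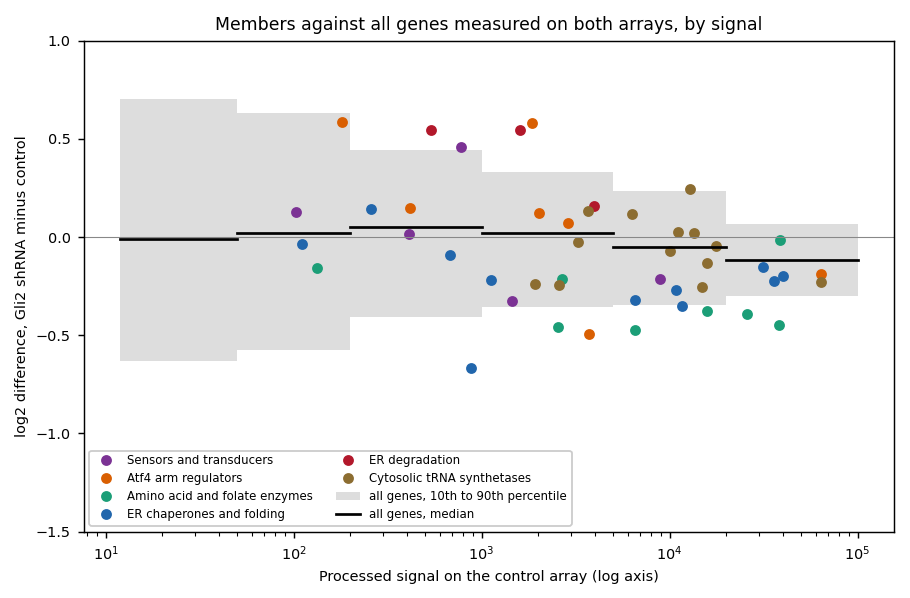
Log2 difference of the 47 members against their processed signal on the control array (log axis), coloured by role, with the median (black lines) and the 10th to 90th percentile (grey) of all genes measured on both arrays in 6 ranges of signal. The median of all genes runs from 0.05 at signals of 200 to 1000 to -0.12 at 20000 and above. Phgdh, Psat1, Psph, Shmt2, Mthfd2, Sdf2l1, Chac1 and Creld2 lie below the grey band and Herpud1, Edem1, Nupr1, Eif2ak3 and Wars above it.

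Of the 11 chaperones and folding enzymes of the ER, 10 lay below 0 and 4 of them past 1.2-fold. Hspa5 (BiP), the main ER chaperone, had scaled signals of 109 and 93.1 (-0.22 ± 0.20), and its 3 probes gave -0.22 to -0.16. Hsp90b1 (GRP94), the ER member of the Hsp90 family, had unscaled signals of 31282 and 34113 and, after scaling, a difference of -0.15 ± 0.20. Calr, the lectin chaperone calreticulin, had scaled signals of 32.9 and 27.4 (-0.27 ± 0.20). The protein disulphide isomerases Pdia4 (3.41 and 2.93) and Pdia6 (122 and 106) gave -0.22 ± 0.20 and -0.20 ± 0.20. Most of these values are no larger than the software's error of a spot or only just so. Several of these genes are bright, and bright genes as a whole also lay somewhat below 0. The median of all genes was -0.12 at control signals of 20000 or more and -0.05 from 5000 to 20000.

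Sdf2l1, a luminal protein that works with Hspa5 and its cochaperones, had the lowest difference of all 47, with scaled signals of 2.66 and 1.67, 62.9% of the control (-0.67 ± 0.20). Of all genes measured on both arrays, 4.96% were as low or lower. Creld2, an ER stress-inducible secreted protein, had 35.4 and 27.7 (-0.35 ± 0.20). Manf, a secreted factor held in the ER, had 19.9 and 15.9 (-0.32 ± 0.20) on its brighter probe and -0.14 on the other. Sdf2l1, Creld2, Manf and Calr (36.4% of the 11) were lower by 1.2-fold or more, as were 18.6% of all genes. With median scaling Sdf2l1 was the one left, with Creld2 at -0.22, Manf at -0.19 and Calr at -0.13. Manf was also inside the limit with the mean of probes (-0.23), and Calr with quantile normalization (-0.23) and cyclic loess (-0.24). Calr was the member just inside this limit (a log2 size of 0.26), and the synthetase gene Aars, at -0.25, the one just outside.

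Among the cochaperones, Dnajc3 (p58IPK) had 2.08 and 1.95 (-0.09 ± 0.20). Dnajb9 (ERdj4), which brings Hspa5 back to Ern1, had 0.79 and 0.87 (0.14 ± 0.21), but its other probe, at signals of 37.4 and 30.8, gave -0.56. Hyou1, the nucleotide exchange factor for Hspa5, had 0.34 and 0.33 (-0.03 ± 0.21), with 0.07 and -0.07 on its other 2 probes. The 11 genes had a median of -0.22, -0.16 after cyclic loess and -0.08 with median scaling. The 6 genes whose promoters hold the ER stress element lay between -0.35 (Creld2) and -0.09 (Dnajc3). In the 3 with a window but no match (Pdia4, Dnajb9 and Sdf2l1) the differences ran from -0.67 to 0.14, a wider range that includes that of the 6.

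The 3 ER degradation genes of the set lay above 0. Herpud1, a membrane protein of the ubiquitin ligase complex that clears misfolded proteins, had scaled signals of 4.89 and 7.14, 146% of the control (0.55 ± 0.20), and its other probe also gave 0.55. Edem1, which directs misfolded glycoproteins to degradation, had 1.63 and 2.38 (0.54 ± 0.20), with 0.43 on its other probe. Sel1l, the partner of the ligase Syvn1, had 11.97 and 13.4 (0.16 ± 0.20) on its brighter probe and 0.47 on the other. All 6 probes of the 3 genes were higher on the Gli2 shRNA array, and Herpud1 and Edem1 were past 1.2-fold, as 19.6% of all genes were in that direction. Degradation factors outside the set did not share this: Os9 was at 0.41, but Edem3 at 0.01, Derl1 at -0.03, Syvn1 at -0.04, Derl2 at -0.18, Edem2 at -0.25 and Derl3, at dim signals, at -1.16. The median of the 3 members was 0.54, and it ranged from 0.49 (mean of probes) to 0.68 (median scaling) over the alternatives.

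**Figure D3:**
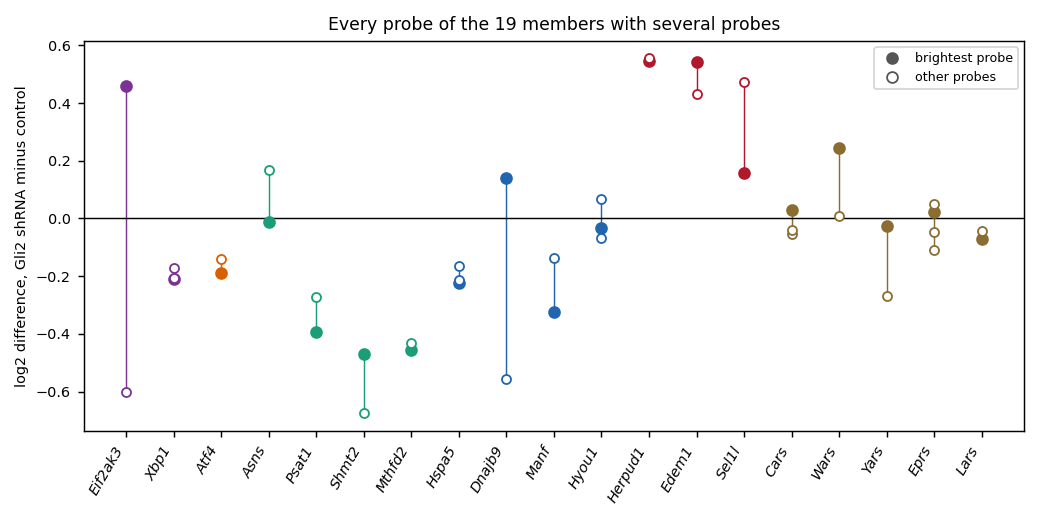
Log2 difference of every probe of the 19 members that had several probes, with the brightest probe filled and the others open, coloured by role as in the other plots. In 13 of the 19 all probes lie on the same side of 0, and the widest gaps are those of Eif2ak3 (0.46 and -0.60) and Dnajb9 (0.14 and -0.56).

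Sensors and transducers showed no common direction. Ern1 (IRE1) had 0.31 and 0.34 (0.13 ± 0.21) and Atf6 1.25 and 1.26 (0.02 ± 0.20). Xbp1, the target of Ern1, had 26.9 and 23.3 (-0.21 ± 0.20), and its 3 probes gave -0.21 to -0.17. The probes are named by a transcript accession, and no separate value for spliced Xbp1 mRNA is given.

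Both eIF2 kinases in the set lay past 1.2-fold in opposite directions. Eif2ak3 had 2.35 and 3.23, 137% of the control (0.46 ± 0.20), on its brighter probe (NM_010121). Its other probe, named by another transcript (NM_001313918) at signals of 44.6 and 35.6, gave -0.60 ± 0.26, so the gene has no settled direction and its mean over probes was -0.07. Eif2ak4 had 4.39 and 3.51, 79.9% of the control (-0.32 ± 0.20), and -0.19 with median scaling, which is inside 1.2-fold. The group median was 0.02, and it was below 0 with normexp, quantile normalization, cyclic loess and the mean of probes, where it went down to -0.07.

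Within the Atf4 arm the regulators split. Atf4 mRNA had scaled signals of 193 and 170, 87.8% of the control (-0.19 ± 0.20), with -0.14 on its other probe. Atf3, a stress-induced factor of the same family, had 0.55 and 0.83, 150% of the control (0.59 ± 0.21), the highest difference of the 47. Nupr1, a stress-induced chromatin protein, had 5.66 and 8.46 (0.58 ± 0.20). Of all genes measured on both arrays, 94.0% were at or below the difference of Atf3. However, Atf3 has 1 probe, at a dim control signal of 182. At control signals of 50 to 200 the 90th percentile of all genes was 0.63, above the value of Atf3. With normexp Atf3 was at 0.40.

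Ddit3 (CHOP), the proapoptotic factor of prolonged stress, had 1.27 and 1.40 (0.15 ± 0.20). Trib3, a pseudokinase induced by Atf4 and Ddit3, had 8.74 and 9.19 (0.07 ± 0.20). Ppp1r15a (GADD34), which returns eIF2 to its unphosphorylated form, had 6.14 and 6.70 (0.12 ± 0.20). These 3 differences are smaller than the software's error. Chac1, which breaks down glutathione and is a sensitive target of Atf4, had 11.3 and 8.01, 71.1% of the control (-0.49 ± 0.20), the second lowest of the 47. The group median was 0.12, with 5 of 7 above 0.

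Genes with the Atf4 element were on both sides of 0. The 12 ran from -0.49 (Chac1) to 0.59 (Atf3) with a median of -0.02, and the other 27 members with a window from -0.67 to 0.54 with a median of -0.21. As the sequences above show, the matches in Herpud1 and Chac1 have the same letters (GTTGCATCA), and their differences were 0.55 and -0.49. Nupr1 and Aars likewise share ATTGCATCA, with differences of 0.58 and -0.25. The matched letters therefore did not go with 1 direction.

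**Figure D4:**
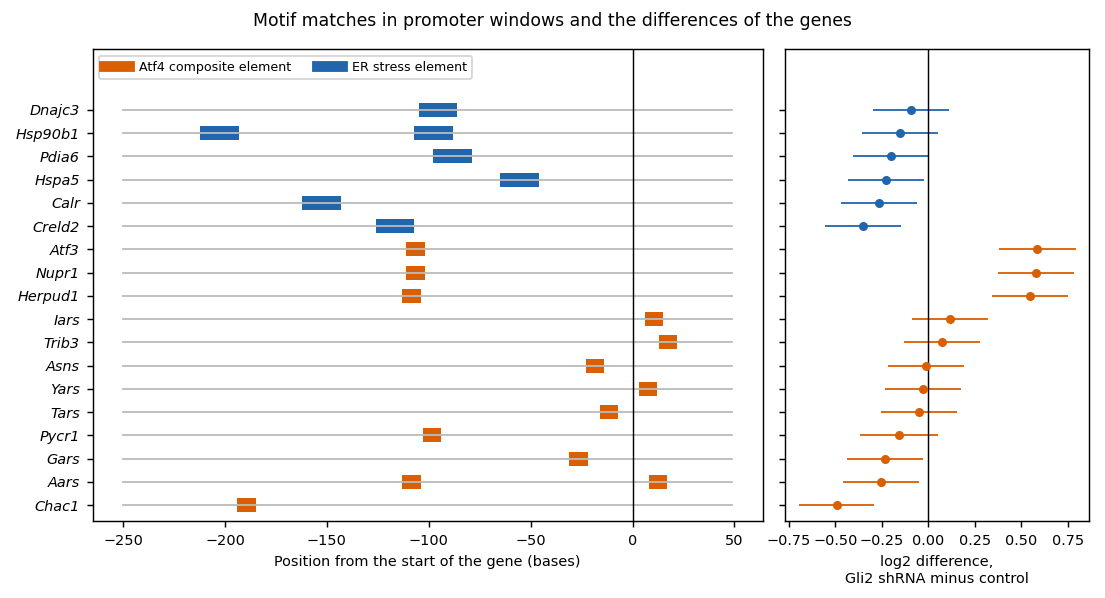
Positions of matches to the ER stress element (blue) and the Atf4 composite element (orange) in the windows of the 18 members that hold either, in bases from the start of the gene, beside each gene's log2 difference with the software's error. The 6 genes with the ER stress element lie between -0.35 and -0.09 and the 12 with the Atf4 element between -0.49 and 0.59.

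Cytosolic tRNA synthetases, which load amino acids onto tRNAs, stayed near 0. None of the 13 was past 1.2-fold with the 75th percentile scaling, but Wars was with median scaling (0.38), quantile normalization (0.31) and cyclic loess (0.28), and Nars with median scaling (0.27). The highest was Wars, for tryptophan, with scaled signals of 39.1 and 46.3 (0.24 ± 0.20) and 0.01 on its other probe, followed by Nars (asparagine), with 11.1 and 12.2 (0.13 ± 0.20), and Iars (isoleucine), with 19.1 and 20.7 (0.12 ± 0.20). At the low end Aars (alanine) had 44.9 and 37.7 (-0.25 ± 0.20), Mars (methionine) 7.81 and 6.60 (-0.24 ± 0.20), Vars (valine) 5.86 and 4.96 (-0.24 ± 0.20) and Gars (glycine) 193 and 165 (-0.23 ± 0.20). Each of these 4 has 1 probe on the array.

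The remaining 6 synthetases lay between -0.13 and 0.03. Sars, for serine, had 47.8 and 43.7 (-0.13 ± 0.20). Lars (leucine) had 30.7 and 29.2 (-0.07), Tars (threonine) 53.6 and 51.8 (-0.05) and Yars (tyrosine) 9.86 and 9.69 (-0.03, and -0.27 on its other probe). Eprs, the joint enzyme for glutamate and proline, had 41.1 and 41.7 (0.02), and its 4 probes gave -0.11 to 0.05. Cars (cysteine) had 33.7 and 34.4 (0.03), with 3 probes from -0.06 to 0.03. The 13 had a median of -0.05 and an SD of 0.16 between genes. The SD of all genes was 0.42, but it includes dim genes, which spread more widely. The 10th to 90th percentile ran from -0.63 to 0.70 at control signals below 50 and from -0.35 to 0.23 at 5000 to 20000. All 13 synthetases had control signals of 1928 (Vars) or more. Whether they spread less than other genes of like signal was not tested, so the SD is not called a trait of the group. With median scaling the median of the 13 was 0.09, so the group has no settled direction.

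**Figure D5:**
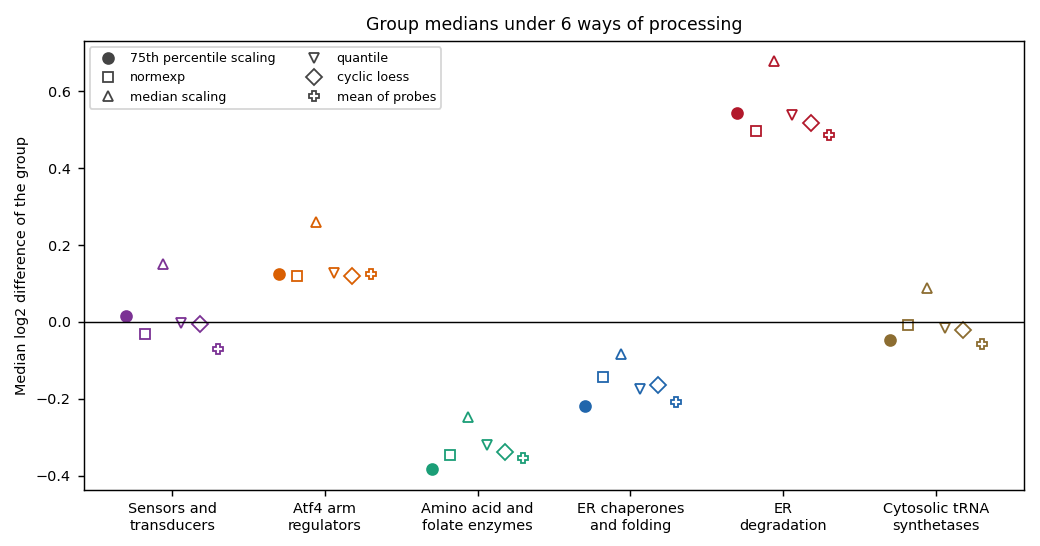
Median log2 difference of each role group under 6 ways of processing, with 75th percentile scaling filled. The amino acid and folate enzymes (-0.38 to -0.25) and chaperones (-0.22 to -0.08) lie below 0 and the ER degradation genes (0.49 to 0.68) and Atf4 arm regulators (0.12 to 0.26) above it in all 6, while sensors and tRNA synthetases lie on both sides.

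Related genes outside the set lay on both sides of 0. Of 33 other unfolded protein response genes measured on both arrays, 15 lay below 0 and 18 above (median 0.01). Ero1a, the oxidase that recharges disulphide isomerases, had 9.54 and 18.9 (0.98 ± 0.20), Wfs1, an ER membrane protein, 1.34 and 2.63 (0.97 ± 0.20) and Mbtps2, a protease that releases Atf6, 2.54 and 4.08 (0.68 ± 0.20, and 0.11 on its other probe). Derl3, a channel factor of ER degradation, was past 2-fold (-1.16 ± 0.37) but dim, with signals of 33.9 and 18.4. Creb3l2 (-0.27) and Edem2 (-0.25) were the next lowest. Other folding genes of this list lay on both sides of 0. The oxidoreductases P4hb (0.20) and Dnajc10 (0.15) lay above it. Dnajb11 (-0.22), Erp44 (-0.20), Sil1 (-0.13), Hspa13 (-0.12) and Pdia3 (-0.02) lay below it, as most chaperone members did. Canx was at -0.07, with 0.26 on its other probe. By 1.2-fold 5 of the 33 (15.2%) were higher and 2 (6.06%) lower, both below the 19.6% and 18.6% of all genes.

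Of 20 other Atf4 targets measured on both arrays, 11 lay below 0 and 9 above (median -0.04), with 2 (10.0%) lower and 4 (20.0%) higher by 1.2-fold, against 18.6% and 19.6% of all genes. Slc7a11, the cystine transporter, had 0.40 and 0.23 (-0.80 ± 0.21) and -1.25 on its other probe. Cth, which makes cysteine, had 2.42 and 1.89 (-0.35 ± 0.20), and the transcription factor Atf5 gave -0.26. The highest were Ddit4, an inhibitor of mTORC1 that also responds to hypoxia, with 24.1 and 35.9 (0.57 ± 0.20), Sesn2, a leucine sensor that inhibits mTORC1, with 3.73 and 5.39 (0.53 ± 0.20), and Vldlr, a lipoprotein receptor (0.47 ± 0.20). Fgf21 was not well above background on either array and Gdf15 only on the control array.

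Other cytosolic synthetases and their scaffold proteins were also followed. Of 10, 6 lay below 0 and 4 above (median -0.03), and 2 (20.0%, against 18.6% of all genes) were lower by 1.2-fold or more: Eef1e1, a scaffold protein of the multisynthetase complex, with 9.38 and 6.43 (-0.55 ± 0.20), and Kars (lysine), at -0.29. Farsa (phenylalanine) followed at -0.11, with Qars (glutamine) 0.12, Aimp1 0.12 and Aimp2 0.06 at the high end.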

How the data were processed

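Gene expression was measured on 1 Agilent 1-colour array per group. Per the file headers, the software was Agilent Feature Extraction, version 12.1.0.3, with protocol GE1_1200_Jun14. The deposited scanner files hold the processed intensity (background-subtracted), its error, median and background intensities, and 0 or 1 flags (other values, deposited as such). The authors' deposited value table holds log2 values and does not state how they were centred. Set against the scanner values, each column was the log2 intensity minus a constant (8.36 and 8.64), and its medians were -3.55 and -3.69. Its direction was that of the scanner values.

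Spots marked as non-uniform or population outliers were left out (126 and 120, none of a member), and no spot was saturated. Log2 intensities were scaled to the 75th percentile of non-control probes. The fixed limit for a gene was 2-fold. Probes were named through RefSeq accessions in a gene table of GRCm38.p6, used for names only. Python 3.11.15 and limma 3.58.1 (R 4.3.3) were used, the latter for normexp (offset 50, on median signals because the files have no mean signal), quantile and cyclic loess. The calculation was tested on simulated data. All members were named, and of each related list the 3 genes in each direction with the largest differences. Some further degradation, folding and folate genes of these lists were named outside this rule, for comparison with the members. Members, lists and rules were chosen with earlier results of these data known. With so few arrays, the spread between cultures is unknown. Repeat spots of 293 probes, all well above background, had a median SD of 0.04 on each array.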

Additional observations from a re-analysis of the deposited data

How the results depend on the processing

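With normexp, quantile normalization, cyclic loess, the mean of probes, no filter on dim probes, a signal of at least 50 on both arrays, members measured on both arrays only and the authors' deposited value table, each group median moved by less than 0.1. The filters changed no value, because every member was measured on both arrays. No member reached 2-fold under any of the 9 alternatives. Median scaling raised all differences alike: the median of the members was 0.0051, of chaperone and folding genes -0.083, of ER degradation genes 0.68, of sensors and transducers 0.15, of Atf4 arm regulators 0.26, of amino acid and folate enzymes -0.25 and of tRNA synthetases 0.088. It left 23 members below 0 in place of 30, with 7 that turned sign, and it gave 5 lower and 11 higher by 1.2-fold in place of 11 and 5. The median of all genes rose to 0.14 under this scaling, and their shares below 0 or past 1.2-fold were not counted there. The mean of probes moved Eif2ak3 to -0.07 and Dnajb9 to -0.21, by more than the software's error. No paired analysis was possible because each group has 1 array.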

Other observations

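The tRNA synthetases of mitochondria, which are encoded by separate nuclear genes for the most part, were also followed. All 17 were measured on both arrays, with 8 below 0 and 9 above and a median of 0.02. Aars2, for alanine, had scaled signals of 0.43 (control) and 0.73 (Gli2 shRNA), a log2 difference of 0.76 ± 0.21 (the software error), whereas its cytosolic counterpart Aars gave -0.25. Ears2, for glutamate, gave 0.34 ± 0.20 on its brightest probe and 0.20 to 0.93 on its other 3. Wars2, for tryptophan, gave 0.40 ± 0.21 on its brighter probe and -0.17 on the other. Tars2, for threonine, had 18.4 and 13.3 (-0.47 ± 0.20), and its other 2 probes gave -0.50 and -0.31. Rars2 (-0.28) and Yars2 (-0.18) followed. By 1.2-fold 3 of the 17 (17.6%) were higher and 2 (11.8%) lower, against 19.6% and 18.6% of all genes. The difference between the cytosolic and mitochondrial enzymes was not tested.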
